A study of Mus musculus with 2 samples.

Results

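The 10 genes described here encode the calcineurin and NFAT pathway of skeletal muscle. They were chosen by name: the NFAT transcription factor genes Nfatc1, Nfatc2, Nfatc3 and Nfatc4, the calcineurin catalytic subunit genes Ppp3ca and Ppp3cb, the calcineurin regulator genes Rcan1 and Rcan2, and the Z-disc genes Myoz1 and Myoz2. They are 10 of the 21911 protein-coding genes on the mouse chromosomes in GENCODE M21, and all 10 were found there. Open chromatin was mapped by DNase-seq, in which DNase I cuts DNA that is not packed by nucleosomes, in the gastrocnemius, a mainly fast calf muscle. All tissue came from female B6CASTF1/J mice at 2 months of age, crosses between C57BL/6J and CAST/EiJ, with no treatment given in the labels. There is 1 group of 2 libraries, labelled biological replicates 1 and 2. They are separate biosamples with the same donor identifier, so the spread between them may be technical.

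Calcineurin is a phosphatase that calcium-bound calmodulin switches on. It removes phosphates from NFAT proteins, which then enter the nucleus and bind DNA at sites with a GGAAA core, often beside AP-1. RCAN proteins bind and restrain calcineurin, and the calsarcins encoded by the Myoz genes tether it to alpha-actinin at the Z-disc. In skeletal muscle the pathway is known for its part in the slow fibre programme and in the response to nerve activity.

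Replicate 1 had 66984 peaks and replicate 2 had 258342, which is 3.86 times as many, and their depth is unknown. Overlap of at least 1 bp between the libraries gave 49160 shared peaks. Strength is given as the percentile of the authors' signal within the same library's list. The long tail of weak peaks in replicate 2 lifts its percentiles, so the values of the libraries are not on 1 scale. As a check of tissue, 5 of 5 fast muscle genes (Acta1, Ckm, Mylpf, Tnnt3 and Atp2a1) had a peak within 1 kb of a transcript start in both libraries. Of the slow muscle genes Myh7, Tnnc1, Tnnt1 and Myl2, 0 of 4 did so, although 3 of 4 had one in replicate 2. Fibroblast genes had it in 3 of 3 and endothelial genes in 2 of 3. Lymphocyte, macrophage, osteoclast and hepatocyte genes had it in 0 of 3, 0 of 3, 0 of 3 and 0 of 2. In replicate 2 on its own, these 4 lists had it in 1 of 3, 2 of 3, 2 of 3 and 1 of 2. A peak in replicate 2 alone thus did not set the slow muscle genes apart from them. The share of each member's signal that came from cells other than muscle fibres was not tested.

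Every one of the 10 members had a promoter peak, within 1 kb of any of its annotated starts, in both libraries. Among all protein-coding genes the share was 60.2%. A gene with more starts has more chances to count. The members had 42 groups of nearby starts for 10 genes, against 52508 for all 21911 protein-coding genes, and shares per group are given below. Within the window of gene body plus 10 kb on both sides, members had a median of 6.5 shared peaks, against 2 for all protein-coding genes. Their windows were longer, with a median of 95.3 kb against 37.4 kb, and per 10 kb of window the medians were 0.459 and 0.325 shared peaks. Distal shared peaks, more than 1 kb from every annotated start of any gene, were present for 8 of 10 members, against 38.3% of protein-coding genes. Ppp3cb and Myoz2 had none.

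The members differed widely among themselves. Nfatc1 had 31 shared peaks, more than any other member, and Ppp3ca had 10. Myoz1 had 8, Nfatc2 and Nfatc4 had 7 each, Rcan2 had 6, Rcan1 had 5 and Nfatc3 had 4. The window of Ppp3cb had 2 and that of Myoz2 had 1. Counted per 10 kb of window the order changed: Myoz1 had 2.92, Nfatc1 2.44 and Nfatc4 2.27, and the other 7 members lay between 0.205 and 0.505. Together the windows held 81 shared peaks, of which 28 lay at a member's own starts, 45 were distal and 8 lay at starts of other genes. By midpoint, 41 lay in introns of the member, 12 in exons, 15 upstream and 13 downstream.

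**Figure D1:**
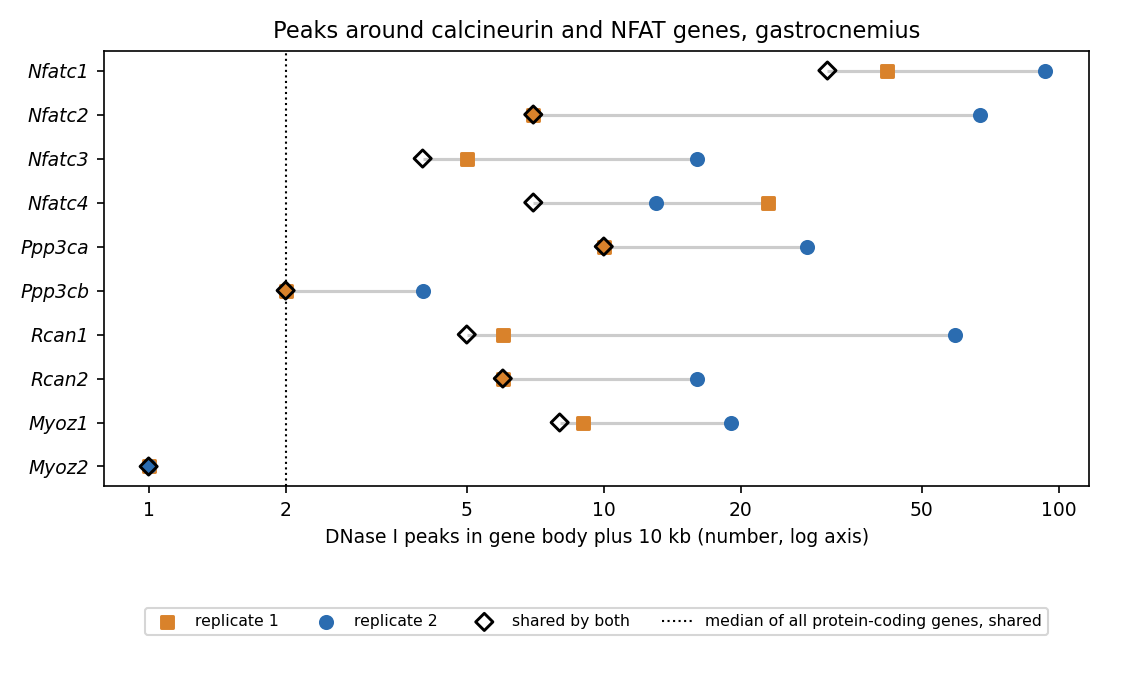
Number of DNase I peaks (log axis) in the gene body plus 10 kb of each member, for replicate 1 (squares), replicate 2 (circles) and shared by both libraries (diamonds). The dotted line is the median of 2 shared peaks over all protein-coding genes; Nfatc1 stands highest with 31, and in Nfatc4 alone replicate 1 lies above replicate 2.

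The surplus of replicate 2 was uneven across the members. In Rcan1 it had 59 peaks where replicate 1 had 6, a ratio of 9.83, and in Nfatc2 it had 67 where replicate 1 had 7, a ratio of 9.57. The median ratio was 2 among the 5316 protein-coding genes with at least 5 peaks in replicate 1, and 2.93% and 3.16% of them had ratios at least as high as Rcan1 and Nfatc2. In Nfatc4 the order was turned round, with 23 peaks in replicate 1 and 13 in replicate 2. Such an excess in replicate 1 was seen in 1 of 10 members, against 4.38% of protein-coding genes. Depth and quality of the libraries were not given, and their part in these differences was not tested.

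Alternative starts were described by joining starts of 1 gene that lie within 500 bp of each other into a start cluster, numbered from the 5′ end of the gene. The members had 42 such clusters, and 22 of them had a peak within 1 kb in both libraries, against 33.2% of the clusters of all protein-coding genes. Of the 23 clusters with a protein-coding transcript, 18 had one, against 45.0% among all such clusters. Clusters with non-coding transcripts only had it in 4 of 19 cases, 21.1%, against 11.2% among all such clusters. The coding clusters without a peak in both libraries were Nfatc4 cluster 5, Rcan1 clusters 1 and 3, and Rcan2 clusters 2 and 3. Because peaks count up to 1 kb away, the same peak can count for neighbouring clusters. In each library the strongest peak was the same for Ppp3ca clusters 1 and 2 and for Nfatc3 clusters 1 and 2. The same held for Nfatc4 clusters 2 and 3, so the starts within these pairs were not told apart.

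**Figure D2:**
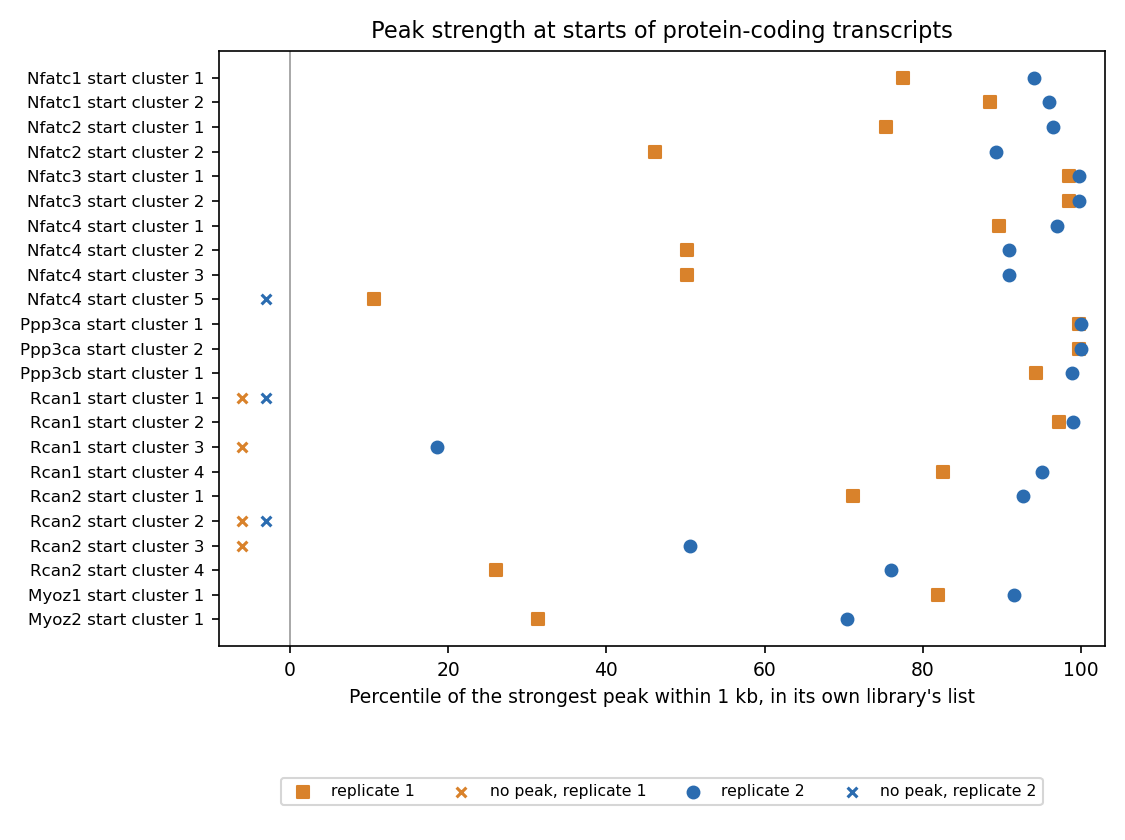
Percentile of the strongest peak within 1 kb of each start cluster that has a protein-coding transcript, within the list of replicate 1 (squares) and replicate 2 (circles); crosses left of 0 mark clusters with no peak. Ppp3ca and Nfatc3 sit near 100 in both libraries, where clusters 1 and 2 of each gene show the same peak. Myoz2 is at 31.3 in replicate 1 and 70.5 in replicate 2, and Rcan1 and Rcan2 each hold clusters with and without a peak.

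Ppp3ca encodes the alpha isoform of the catalytic subunit, and its promoter peak was the strongest of all 81 shared peaks. The peak, chr3:136669881-136670120 (mm10), ended just upstream of the start of Ppp3ca-202 and Ppp3ca-203, with its midpoint 118 bp away. Its signal was 12.7 in replicate 1 and 38.4 in replicate 2, percentiles 99.7 and 99.9. By mean rank only 0.315% of all shared peaks were stronger. The authors' footprints, short stretches protected from DNase I within open DNA, numbered 3 in replicate 1 and 4 in replicate 2, and every one of them overlapped a footprint of the other library. The sequence is shown because it carries 92 bases that lie in footprints of both libraries, in 4 runs, given in capitals (plus strand, which is the gene's strand). In or touching them are a CCAAT box at position 115 and matches to the GC box GGGCGG at positions 61, 66, 141 and 195, counted from the 5′ end.
Ppp3ca promoter: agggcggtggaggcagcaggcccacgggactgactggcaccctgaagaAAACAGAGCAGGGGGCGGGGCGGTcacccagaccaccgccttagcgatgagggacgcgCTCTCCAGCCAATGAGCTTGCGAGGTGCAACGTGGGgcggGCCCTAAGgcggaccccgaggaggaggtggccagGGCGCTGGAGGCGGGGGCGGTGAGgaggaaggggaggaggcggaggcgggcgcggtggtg

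Beyond the promoter, Ppp3ca had 7 distal shared peaks, 6 of them in introns 1 to 3 of Ppp3ca-202, which spans most of a gene of 268 kb. The strongest was chr3:136725301-136725520 in intron 1, 55.3 kb downstream of the gene's 5′ end, at percentiles 87.1 and 97.7. It held the E-box CAGCTG, the site of myogenic bHLH factors, in footprints of both libraries, and so did chr3:136721921-136722100, a neighbour closer to the start (72.9 and 94.2). Among the 34 E-boxes in member peaks only these 2 did so, 5.88%, against 8.69% over all shared peaks. A further peak in intron 2, chr3:136802661-136802900, reached 84.3 and 94.99. None of the 5 clusters of non-coding starts inside the gene had a peak in both libraries.

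Ppp3cb encodes the beta isoform of the catalytic subunit. It had 1 shared peak of its own, chr14:20546121-20546360 in intron 1 of Ppp3cb-202, 189 bp downstream of a start, at percentiles 94.3 and 98.8. The midpoint was 6 bp from a start of the neighbouring gene 1810062O18Rik, so the peak cannot be given to either gene alone. Both libraries had 2 footprints there, and 1 in each overlapped. The other shared peak in the window lay at the promoter of Mss51. Between the 2 catalytic subunit genes, Ppp3ca had 7 distal shared peaks in a window of 288 kb and Ppp3cb had 0 in 67.2 kb.

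Nfatc1 encodes the NFAT protein best known for an inducible promoter and a second promoter further into the gene. Both were open: start cluster 1 (80712766 to 80713071 on chromosome 18, minus strand, 3 coding transcripts) had its strongest peak at percentiles 77.5 and 94.1, and cluster 2 (80708173, 3 coding transcripts, 4.9 kb into the gene) at 88.5 and 96.0. The downstream promoter was thus the higher of the pair in both libraries. Signals were 1.49 and 2.95 at cluster 1, and 2.56 and 4.23 at cluster 2, in replicates 1 and 2. The values at cluster 1 belong to neighbouring peaks, chr18:80712381-80713000 in replicate 1 and chr18:80713021-80713340 in replicate 2. The strongest peak of the locus lay at neither promoter. It was chr18:80715361-80715600, 2405 bp upstream of the gene, with signals of 3.80 and 8.61 and percentiles of 93.8 and 98.4.

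The remaining shared peaks of Nfatc1 fell into distinct stretches. A pair in intron 6 of Nfatc1-206, about 57 kb into the gene, was led by chr18:80656741-80656930 at 81.0 and 94.4. A dense run of 21 shared peaks covered 20.2 kb at and beyond the 3′ end (chr18:80597381-80617600). Its median percentiles were only 15.5 and 39.5, although chr18:80617344-80617600 at its edge reached 81.3 and 95.7. In replicate 2 alone the run was longer, with 69 peaks over 41.0 kb. Thus most of the 31 shared peaks of Nfatc1 were weak, and 12 were counted when both lists were cut to an equal number of their strongest peaks. By class, 20 of the 31 were distal, 6 lay at its own starts and 5 at starts of other genes. The other genes were AC149054.1, within the 3′ run, and AC123818.1, in intron 1. Of its own starts, cluster 3 (80608975, the non-coding transcript Nfatc1-207) also lay within the 3′ run. At this start were the shared peaks chr18:80608381-80608700 and chr18:80608761-80609011, 104.5 and 104.2 kb into the gene. In replicates 1 and 2 the former stood at percentiles 60.997 and 87.997, and the latter at 42.6 and 70.5. Segments that the authors list at a false discovery rate under 0.05 covered 9.62% of the window in replicate 1 and 24.3% in replicate 2, against 0.811% and 2.62% of the genome.

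**Figure D3:**
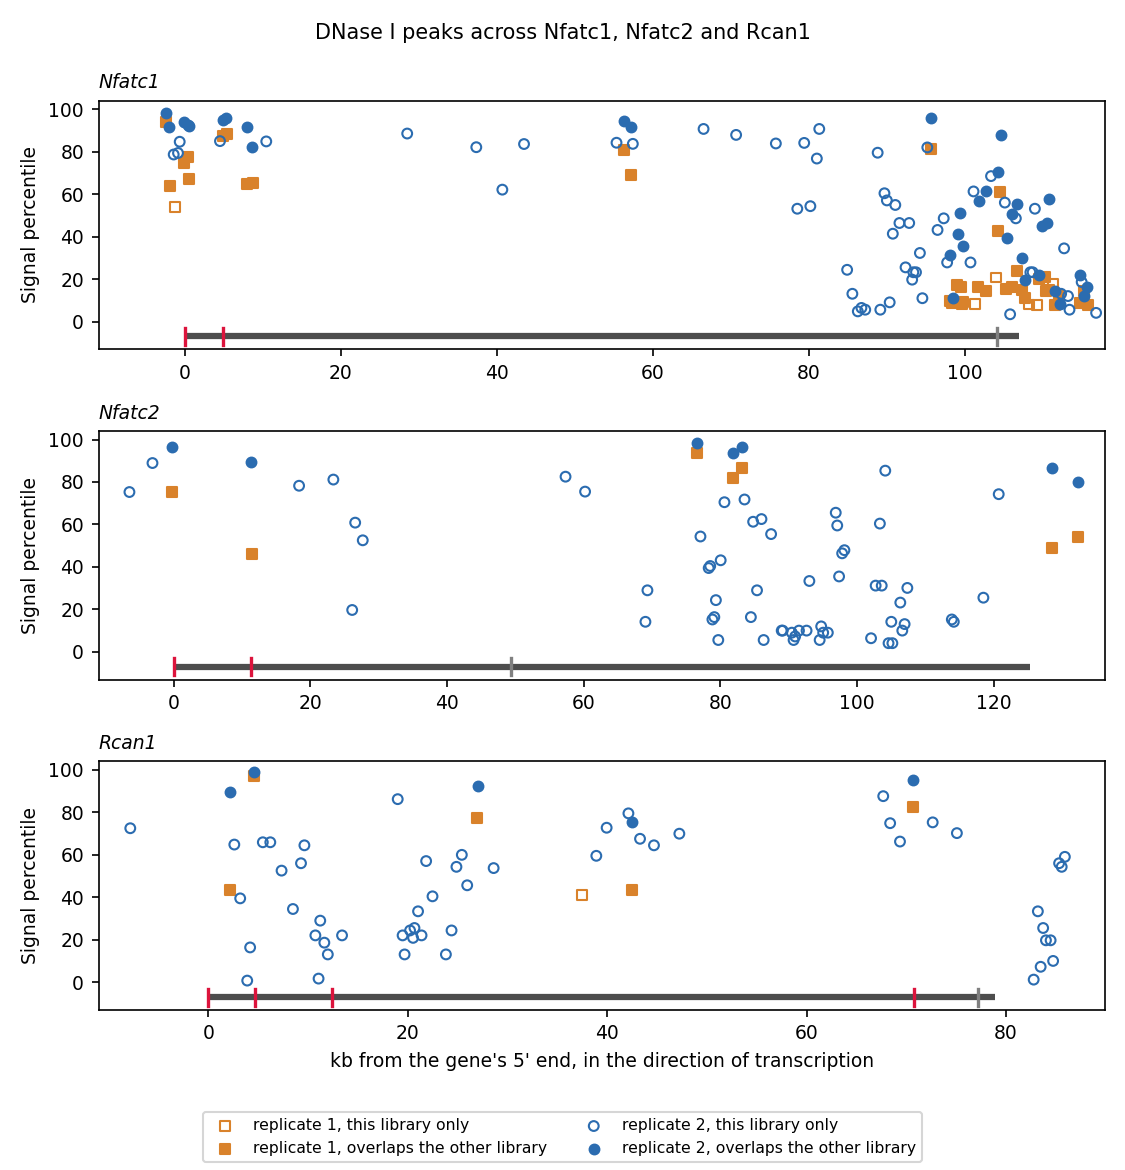
Peaks of Nfatc1, Nfatc2 and Rcan1 by distance from the gene's 5′ end (kb, in the direction of transcription) and percentile of signal within the library's list. Squares are replicate 1, circles replicate 2, filled symbols overlap the other library; the bar is the gene, with coding (red) and non-coding (grey) start clusters. Nfatc1 shows the dense, weak run at its 3′ end in both libraries, whereas the dense stretches of Nfatc2 and Rcan1 are open circles of replicate 2.

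Nfatc4, a short gene of 10.8 kb that encodes another calcium-regulated NFAT protein, was open along its 5′ part and upstream. Its strongest peak, chr14:55823341-55823700, lay 387 bp downstream of the start of Nfatc4-209 in an intron, at percentiles 89.6 and 97.0. It held 12 footprints in replicate 1 and 7 in replicate 2, of which 7 and 7 overlapped. The coding start clusters 2 and 3 had the same strongest peak, at 50.2 in replicate 1 and at 90.9 in replicate 2. These were different peaks, and that of replicate 2 overlapped none of replicate 1. The shared peak there, chr14:55824881-55826960, stood at 50.2 and 87.4. Cluster 5 had a peak in replicate 1 only, at percentile 10.7. A pair of distal peaks lay about 8 kb upstream, of which chr14:55814981-55815160 (77.9 and 88.4) held an AP-1 match, TGANTCA, in footprints of both libraries. The 11 peaks found in replicate 1 only had a median percentile of 4.34. Listed segments covered 33.8% of the window in replicate 1 and 13.9% in replicate 2.

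Nfatc2 encodes an NFAT protein known from lymphocytes and from muscle growth. Its outer promoter, peak chr2:168601761-168602160, stood at percentiles 75.3 and 96.5, and the inner promoter at start cluster 2, 11.3 kb into the gene, at 46.2 and 89.3. The outer one was thus the higher in both libraries, the reverse of Nfatc1. Both were exceeded by an intronic site, chr2:168524981-168525200, in intron 5 of Nfatc2-204 and 76.6 kb from the gene's 5′ end, with signals of 3.76 and 8.67 and percentiles of 93.7 and 98.4. By mean rank 8.14% of all shared peaks were stronger. It had 6 footprints in replicate 1 and 5 in replicate 2, of which 4 and 5 overlapped. The sequence is shown because both of its GGAAA cores, at positions 3 and 100, and its AP-1 match at position 157 touched footprints of both libraries. Capitals mark the 64 bases in footprints of both libraries (gene strand, which is the minus strand).
Nfatc2 intron 5: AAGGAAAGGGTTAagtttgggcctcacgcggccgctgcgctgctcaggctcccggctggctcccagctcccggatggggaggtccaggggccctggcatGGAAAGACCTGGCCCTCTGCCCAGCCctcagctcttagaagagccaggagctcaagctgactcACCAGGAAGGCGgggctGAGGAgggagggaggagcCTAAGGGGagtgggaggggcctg

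Near that site, chr2:168518401-168518660 (86.6 and 96.4) and chr2:168519641-168519920 (82.1 and 93.7) lay in intron 6 of the same transcript. The midpoint of chr2:168518401-168518660 also fell in an untranslated or non-coding exon of another Nfatc2 transcript. The 3 sites lie at the start of a run of 48 peaks over 30.8 kb in replicate 2, of which only 3 overlapped a peak of replicate 1. The median percentile of that run was 26.7. In all, 60 of the 67 peaks of replicate 2 in the window had no counterpart in replicate 1.

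Nfatc3 encodes an NFAT protein known in mouse from the formation of early muscle fibres. It had 4 shared peaks and the strongest promoter of the NFAT genes. The peak, chr8:106059381-106059620, lay 132 bp upstream of start cluster 2 and inside the transcripts of cluster 1, which begin further upstream. Its signal was 7.53 in replicate 1 and 22.7 in replicate 2, percentiles 98.5 and 99.7. The only distal shared peaks lay in coding exon 9 of Nfatc3-201, chr8:106108141-106108440 and chr8:106108641-106109100, at percentile 57.5 each in replicate 1 and at 80.4 and 77.6 in replicate 2. The promoter is shown because 58 of its bases lie in footprints of both libraries, in capitals, and these include the palindrome CACGTG at position 67 and a GC box at position 184 (plus strand, the gene's strand). It has no GGAAA core.
Nfatc3 promoter: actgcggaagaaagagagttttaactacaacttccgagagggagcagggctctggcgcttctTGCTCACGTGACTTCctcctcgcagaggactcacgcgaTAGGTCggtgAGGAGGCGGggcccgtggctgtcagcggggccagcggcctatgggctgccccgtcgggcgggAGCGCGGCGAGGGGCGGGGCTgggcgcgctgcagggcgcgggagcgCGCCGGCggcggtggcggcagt

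Rcan1 encodes the inhibitor that calcineurin is known to induce through NFAT sites at an internal promoter. In the gastrocnemius an upstream and the internal start were both open, and the upstream one was the stronger. The peak chr16:92466161-92466460 lay 165 bp upstream of start cluster 2 (Rcan1-202 and Rcan1-206), with signals of 5.75 and 11.4 and percentiles of 97.2 and 98.9. The peak chr16:92400041-92400320 lay at start cluster 4 (Rcan1-201 and Rcan1-207), 70.7 kb from the gene's 5′ end and in intron 1 of Rcan1-202, with signals of 1.84 and 3.49 and percentiles of 82.5 and 95.1. No peak lay at clusters 1 and 5 in any library, and cluster 3 had a weak peak in replicate 2 only, at percentile 18.6.

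The sequences of both open Rcan1 promoters are shown because they differ in what they hold (gene strand, minus). In the upstream one, capitals mark the 65 bases in footprints of both libraries. They cover CACGTG at position 101 and GC boxes at positions 61 and 146, and touch a CCAAT box at position 126, and no GGAAA core occurs. In the internal one, shown up to the base before the start, capitals mark the GGAAA cores on either strand, which lie 224, 190 and 160 bp upstream of the start. This stretch further holds TGACGTCA, a cyclic AMP response element, at position 68 and an AP-1 match at position 133. Each library had 1 footprint in the internal peak, but they did not overlap, so no base was in footprints of both.
Rcan1 upstream promoter: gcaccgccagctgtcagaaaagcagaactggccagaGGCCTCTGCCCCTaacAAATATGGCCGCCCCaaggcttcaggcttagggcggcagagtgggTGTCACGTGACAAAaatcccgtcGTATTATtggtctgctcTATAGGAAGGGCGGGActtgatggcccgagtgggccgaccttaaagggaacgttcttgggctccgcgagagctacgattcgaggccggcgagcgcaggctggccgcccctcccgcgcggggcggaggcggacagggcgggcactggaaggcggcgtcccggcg
Rcan1 internal promoter: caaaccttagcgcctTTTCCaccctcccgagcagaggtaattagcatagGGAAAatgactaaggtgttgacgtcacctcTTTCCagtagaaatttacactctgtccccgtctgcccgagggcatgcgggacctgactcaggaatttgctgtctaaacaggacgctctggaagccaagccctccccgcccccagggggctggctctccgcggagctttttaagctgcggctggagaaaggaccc

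Counted over the 500 bp upstream of the start, the internal Rcan1 cluster had 5 GGAAA cores. The median over 34136 coding start clusters of all protein-coding genes was 2, and 4.43% had 5 or more. Ppp3cb had 5 as well, and the upstream Rcan1 promoter had 1. The remaining coding clusters of the members had 0 to 4, so the NFAT core count varied as much between the starts of Rcan1 as between members.

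The strongest distal peak of Rcan1, chr16:92443681-92444060, lay in intron 1 of Rcan1-202 and 27.0 kb from the gene's 5′ end, at percentiles 77.4 and 92.5. It is shown because 2 of the 3 GGAAA cores in its central 300 bases, at positions 144 and 218, lie in footprints of both libraries, which the internal promoter's cores do not (capitals mark those bases, gene strand). The core at position 169 lies outside them. The other distal peaks, chr16:92468601-92468780 and chr16:92428288-92428470, were both at percentile 43.4 in replicate 1 and at 89.8 and 75.7 in replicate 2.
Rcan1 intron 1: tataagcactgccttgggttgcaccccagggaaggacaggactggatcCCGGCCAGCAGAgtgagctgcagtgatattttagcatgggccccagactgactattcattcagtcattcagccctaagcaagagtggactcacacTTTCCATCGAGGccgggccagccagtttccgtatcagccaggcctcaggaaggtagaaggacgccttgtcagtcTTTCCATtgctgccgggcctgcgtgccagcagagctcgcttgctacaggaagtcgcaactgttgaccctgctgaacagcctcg

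Of the 59 peaks of replicate 2 in the Rcan1 window, 54 had no counterpart in replicate 1. Their median percentile was 43.0 and the highest was 87.6, so each ranked below the shared peaks at both promoters. They were spread in several stretches along the gene. One stretch lay in a run of 18 peaks of replicate 2 over 11.2 kb at the upstream promoter, of which 2 overlapped a peak of replicate 1.

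Rcan2, the related inhibitor gene, spans 238 kb but had weak sites. Start cluster 1 stood at percentiles 71.2 and 92.7, cluster 2 had no peak, cluster 3 had one in replicate 2 only (50.6), and cluster 4, 225 kb downstream, stood at 26.1 and 76.0. The 3 distal shared peaks ranked below cluster 1 and near cluster 4, and the leading one, chr17:43869841-43870000 in an intron (26.1 and 77.4), held a match to the CTCF motif in footprints of both libraries. Of the 2 inhibitor genes, Rcan2 thus had 1 shared peak above percentile 50 in replicate 1 and Rcan1 had 3. In the shorter deposited lists Rcan2 likewise had 1 shared peak and Rcan1 had 3, where the lists used here gave 6 for Rcan2 and 5 for Rcan1. Listed segments covered 0.546% and 1.41% of the Rcan2 window in replicates 1 and 2, below the genome's 0.811% and 2.62%, whereas for Rcan1 they covered 2.02% and 19.3%.

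The Myoz genes differed widely, with 2.92 shared peaks per 10 kb of window in Myoz1 and 0.205 in Myoz2. Myoz1, which encodes the calsarcin of fast fibres, had 8 shared peaks in a window of 27.4 kb, and 98.3% of protein-coding genes had fewer per 10 kb. Its promoter, chr14:20656381-20656700 (81.9 and 90.4), was exceeded by an intronic site, chr14:20651761-20652060, in intron 3 of Myoz1-201, at percentiles 93.9 and 97.0. That site is also 203 bp upstream of the start of the non-coding transcript Myoz1-204. Upstream of the gene lay the wide peak chr14:20660901-20662500 (86.1 and 96.2), 4.7 kb from the start of Myoz1, with a CTCF match in footprints of both libraries. Its midpoint was closer to a start of Synpo2l, at 3378 bp. The promoters of Synpo2l and 2810402E24Rik fell in the same window and gave 2 of its 8 shared peaks. In the gene body only, Myoz1 had 3 shared peaks.

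The intronic site of Myoz1 is shown because it holds the only match to the MEF2 motif, a binding site of calcineurin-responsive muscle factors, in the 81 shared peaks. The match starts at position 244, and its end overlaps a footprint in both libraries. Capitals mark the 23 bases in footprints of both libraries (gene strand, minus). A GGAAA core at position 39 lies outside them.
Myoz1 intron 3: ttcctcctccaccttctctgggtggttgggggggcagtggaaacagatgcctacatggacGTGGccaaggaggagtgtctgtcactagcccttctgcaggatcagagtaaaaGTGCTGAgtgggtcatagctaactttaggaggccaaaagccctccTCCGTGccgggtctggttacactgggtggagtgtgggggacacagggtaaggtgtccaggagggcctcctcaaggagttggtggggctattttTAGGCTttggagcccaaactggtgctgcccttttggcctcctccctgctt

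Myoz2, which encodes the calsarcin of slow fibres and heart, had 1 peak in each library, at its start (chr3:123034781-123035019, exon 1). Its signal was 0.509 in replicate 1 and 0.633 in replicate 2, percentiles 31.3 and 70.5, the lowest of the strongest promoter peaks of the members. No other peak of any library lay in its window of 48.8 kb, and listed segments covered 0.330% and 0.430%. An AP-1 match inside it touched footprints of both libraries. Myoz2 had 0 shared peaks in the shorter deposited lists, among peaks at or above the median signal of their list, and among an equal number of strongest peaks, and in each of these it was the member that lost its promoter call.

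**Figure D4:**
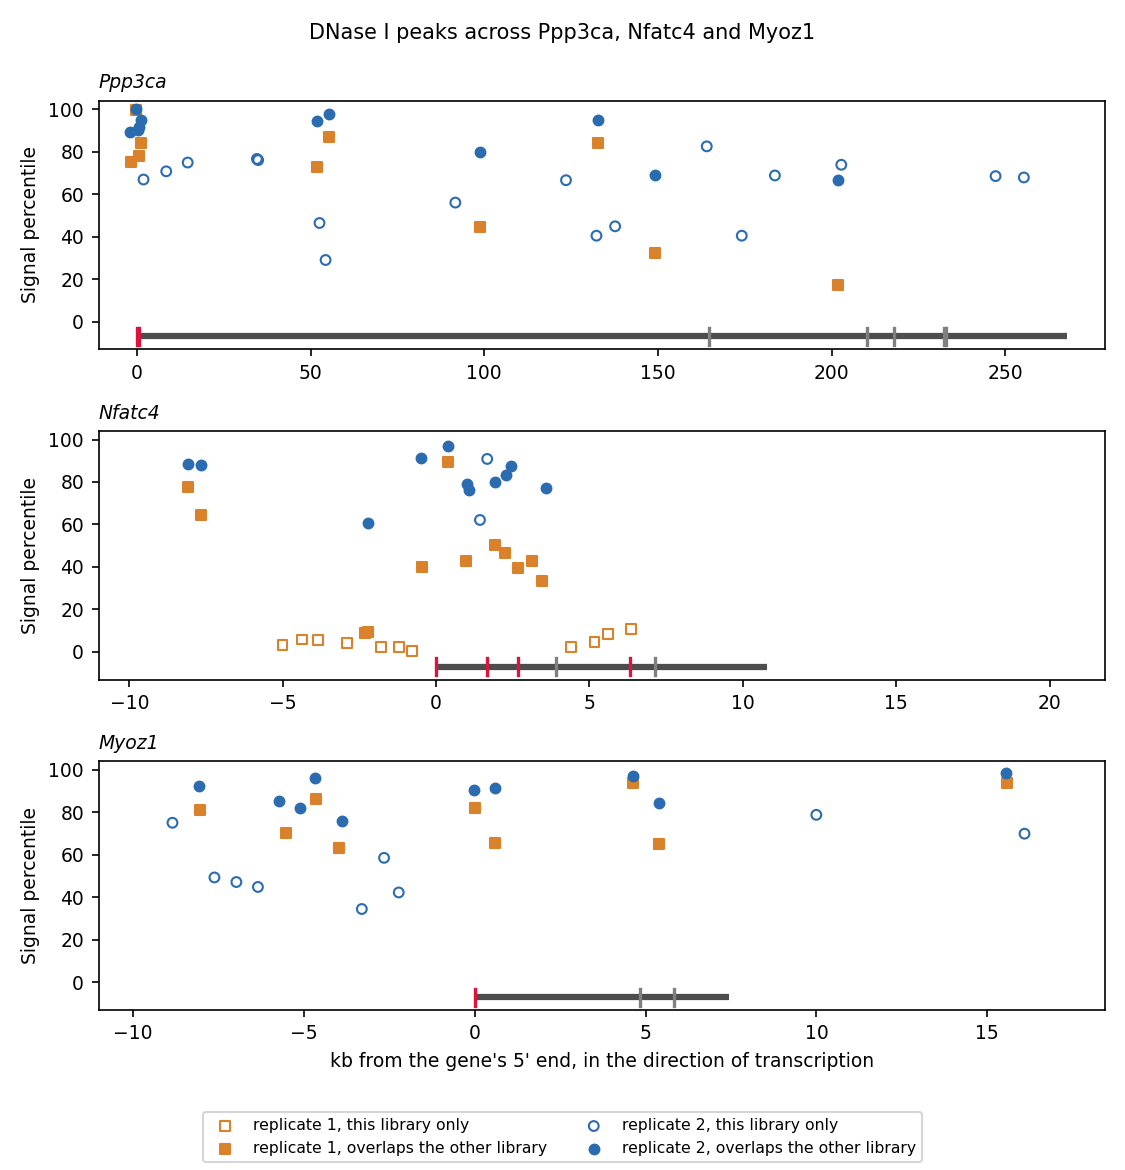
Peaks of Ppp3ca, Nfatc4 and Myoz1 by distance from the gene's 5′ end (kb) and percentile of signal within the library's list, with symbols for replicate 1 (squares), replicate 2 (circles), overlap with the other library (filled), the gene (bar) and its coding (red) and non-coding (grey) start clusters. Ppp3ca has its highest peak at the start and others far into its introns, Nfatc4 has a row of open squares of replicate 1 below percentile 11, and Myoz1 has peaks of both libraries on both sides of the gene.

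Across the members, strength at own promoters was like that of promoters elsewhere. The median percentiles were 76.3 and 92.0 in replicates 1 and 2 over the 28 shared peaks at the members' starts, against 76.2 and 93.7 over all 21842 shared peaks within 1 kb of a start. Distal peaks of members were at 43.4 and 77.4, against 51.0 and 86.5 over all 27318 distal shared peaks. The weak 3′ run of Nfatc1 held 16 of the members' 45 distal peaks.

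NFAT proteins bind at GGAAA, so the core was counted on both strands in the central 150 bp of every shared peak. It was present in 30 of 81 member peaks, 37.0% (95% exact interval 26.6 to 48.5), against 34.2% of all shared peaks. Among distal peaks it was present in 22 of 45 for members, 48.9% (33.7 to 64.2), against 37.3% for all. Near starts it was present in 8 of 36, 22.2%, against 30.3%. The genome-wide share lay inside the members' interval in each case. The intervals treat peaks as independent, although Nfatc1 alone held 31 of the 81, so they cannot decide whether members differ. Nfatc1 had 15 of the 30 peaks with a core, and Ppp3cb and Myoz2 had none.

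Other motifs were counted in the same way. The longer TGGAAA was in 16.0% of member peaks against 10.98% of all, CAGCTG in 18.5% against 19.2%, and AP-1 in 6.17% against 6.45%. MEF2 was in 0 of 81 central windows, with an exact upper bound of 4.45%, against 0.700%, and CTCF in 2 of 81, against 2.17%. The motifs named from the printed sequences occurred as follows: CACGTG in 6.17% against 4.98%, CCAAT in 13.6% against 20.2%, GGGCGG in 18.5% against 25.0%, and TGACGTCA in 1 of 81 peaks against 1.04%. That 1 peak was chr18:80608381-80608700 of Nfatc1. The TGACGTCA printed for the internal Rcan1 promoter lay outside the central 150 bp and was not counted. Longer motifs can contain or overlap the shorter ones, and a match describes letters only.

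**Figure D5:**
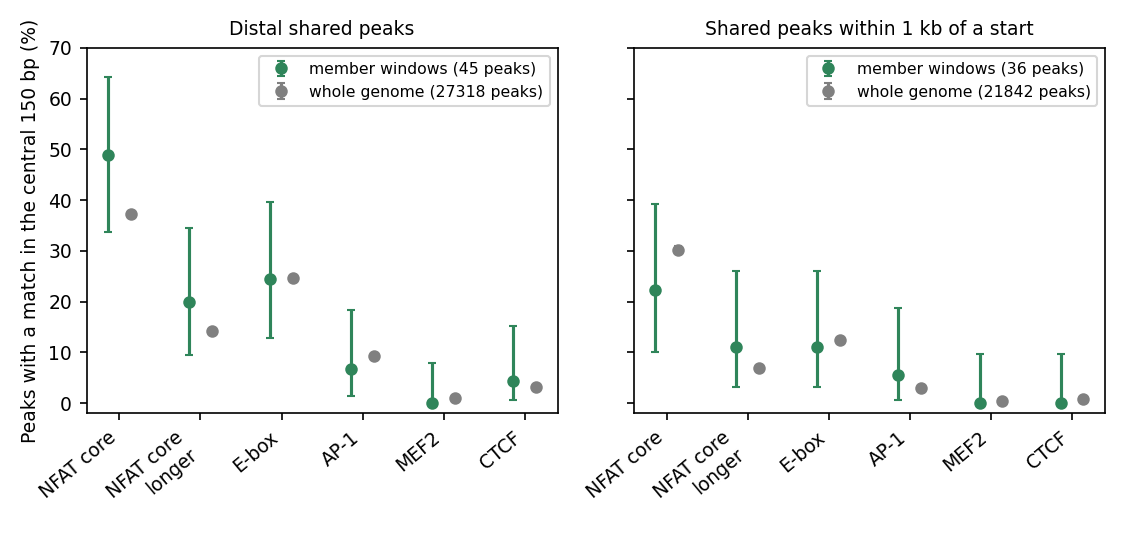
Share of shared peaks (%) with a match in the central 150 bp, for distal peaks (left) and peaks within 1 kb of a start (right), in member windows (green) and over the whole genome (grey), with exact 95% intervals. For each of the 6 motifs drawn the interval of the members spans the genome-wide share.

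Footprints were called at similar density in member peaks and elsewhere. Within the 81 shared peaks replicate 1 had 201 footprints and replicate 2 had 202, 2.48 and 2.49 per peak, against 2.63 and 2.90 over all shared peaks. Of these, 43.8% in replicate 1 and 43.6% in replicate 2 overlapped a footprint of the other library, against 50.8% and 45.9% over all. Of the 88 GGAAA cores in the whole member peaks, 11.4% touched a footprint in replicate 1 and 10.2% in replicate 2, against 12.1% and 14.5%. In both libraries 6 did so, 6.82% (95% exact interval 2.54 to 14.3), against 5.78% of the cores in all shared peaks. They lay in Rcan1 intron 1 (2 cores), Nfatc2 intron 5 (2 cores), the outer Nfatc2 promoter and the promoter of 2810402E24Rik in the window of Myoz1. For the other motifs, matches touching footprints of both libraries were few in number in member peaks, and their shares lay above and below those over all. They were 2 of 34 for the E-box (8.69% over all shared peaks), 3 of 8 for AP-1 (7.15%) and 1 of 1 for MEF2 (15.0%). For CTCF they were 2 of 2 (54.9%), and for CACGTG 3 of 5 (18.9%). CCAAT had 2 of 27 (23.3%) and the GC box 15 of 65 (25.8%). Of these motifs, only for AP-1 did the members' exact 95% interval, 8.52 to 75.5%, leave out the share over all shared peaks. It rests on 8 matches, so it cannot decide whether members differ.

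Promoters of the wider pathway were open too. A peak within 1 kb of a start was present in both libraries for 36 of 37 further genes, against 60.2% of protein-coding genes, and the exception was Ppp3r2, a regulatory subunit gene known from testis. The calcineurin subunits and binding proteins had it in 10 of 11, the other NFAT, RCAN and MYOZ family genes in 3 of 3, the NFAT kinases in 7 of 7, the Homer scaffolds in 3 of 3, the calcium entry genes in 8 of 8 and the partners in 5 of 5. As for the members, a gene with more starts had more chances to count. At least 1 distal shared peak was present for 23 of the 37, 62.2%, against 38.3% of protein-coding genes. Their median was 4 shared peaks per window, against 2, in windows of a median 54.8 kb, against 37.4 kb. Per 10 kb the medians were 0.462 for the pathway genes and 0.325 for all. Mef2d, a calcineurin-responsive transcription factor gene, led with 25 shared peaks, before the NFAT kinase gene Csnk1d with 15 and the calmodulin gene Calm3 with 13.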

How the data were processed

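DNase-seq peaks, footprints and cut rate segments of 2 libraries of 1 group were used. They form 1 group, so nothing could be compared between groups. The build is mm10, per the labels. The deposited README files state that each library had its peaks called alone, from filtered alignments. Aligner and caller: not given in the sources used here. The authors gave each peak a signal, whose scale is not stated, so it served only to rank peaks within a list. The deposited footprint files hold a p-value column with 0.01 in every row, and the p-value column of the segment files was read as a false discovery rate, under 0.05 throughout. The printed letters are those of the C57BL/6J reference, from RefSeq's GRCm38.p6 sequence, and differences of the CAST/EiJ allele were not analysed.

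The longer of the 2 peak lists of each library was used. Peaks of the libraries that overlapped by at least 1 bp were merged into shared peaks. They were assigned by midpoint to windows of gene body plus 10 kb, and starts came from all GENCODE M21 transcripts. Exon and intron numbers follow the coding transcript with most exonic bases. A run joins peaks less than 5 kb apart. Motif windows were 150 bp wide, intervals are exact Clopper-Pearson at 95%, and intervals cover counting error only. Depth is unknown. No test was made, since there is 1 group and the genes were chosen by function. All 10 members are named, with their strongest distal shared peak. Of the pathway list, the genes without a promoter peak in both libraries and the 3 with most shared peaks are named. The members and lists were chosen with earlier results of these data known. The last 4 of the 10 motifs described were added after the sequences were seen, and runs and other sites named were picked after their values were seen. Overlaps, distances and window counts were tested on simulated peaks. Counting used pandas 2.3.3 and numpy 2.4.6 in Python 3.11.15, sequences were read with pysam 0.24.0, intervals came from scipy 1.17.1, and plots from matplotlib 3.10.9.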

Additional observations from a re-analysis of the deposited data

How the results depend on the processing

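No paired analysis was possible because the labels give 1 group. The count of members with a promoter peak in both libraries stayed at 9 or 10 in all 9 alternatives run, and the start clusters at 17 to 25 of 42 (18 of 23 with coding starts only). The median of shared peaks per window, 6.5, was 4 with peaks at or above their list's median signal and 4 in gene bodies only. Leaving out a library gave 6.5 to 17.5, the upper value without replicate 1, where every peak of replicate 2 counts. The distal median, 3, was 1.5 with the shorter deposited lists and 3.5 to 11 with a library left out. The share of member peaks with GGAAA, 37.0%, was 27.2% in windows of 100 bp, 48.1% in windows of 200 bp and 16.0% for TGGAAA, as fewer or more bases are searched, and 37.8% to 38.0% with a library left out. The share of overlapping footprints, a mean of 43.7% over the libraries, was 38.0% when at least 50% of the shorter footprint had to overlap. Among single members, an overlap of 50% moved 0 of 10 counts by more than 1.5 times, leaving out replicate 2 moved 1 (Nfatc4), and the same number of strongest peaks 2 (Nfatc1 and Myoz2). The shorter deposited lists, peaks at or above the median signal and gene bodies only moved 5 each, gene body plus 50 kb moved 6 and leaving out replicate 1 moved 9. Rcan2 had 6 shared peaks, but 1 in the shorter lists and 1 at or above the median signal, and Rcan1 had 5, but 3 in both. Depth is unknown, so a site absent from replicate 1 may be undetected there.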
